A study of Mus musculus with 18 samples.

Results

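The neutrophil granule genes are 10 genes, chosen by name, whose proteins fill the granules and cytosol of neutrophils. They were followed over day and knockdown in cultures of mouse fetal liver hematopoietic progenitors, and they are 10 of the 46167 genes to which the quantified transcripts could be assigned. The list holds Mpo, Elane, Prtn3 and Ctsg for the primary granules, Ltf, Camp, Ngp and Lcn2 for the secondary granules, and S100a8 and S100a9 for the cytosol. All 10 passed the filter on low counts, so no member was lost before testing.

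The study asked what PCBP1 and PCBP2, a pair of poly(C)-binding RNA-binding proteins, do during red cell formation. Progenitors were enriched from livers of CD-1 mouse embryos at stage E14.5 with a negative-selection kit to which an antibody against CD71, the transferrin receptor, had been added. They were infected with MSCV-based retroviruses carrying puromycin resistance, GFP and a short hairpin RNA, then kept for 48 hours in StemPro34 expansion medium with dexamethasone, stem cell factor and a low dose of erythropoietin (Day 0). Some were then moved for 2 more days to serum-containing IMDM with a higher dose of erythropoietin (Day 2). The 18 libraries form 6 groups of 3, which are control, PCBP1 knockdown and PCBP2 knockdown on each day. The control libraries carry scrambled hairpins SCR-1 and SCR-2 and the luciferase hairpin LUC-1, and the replicates of each knockdown are different hairpins, numbered 1, 3 and 4, so hairpin and replicate cannot be told apart. Every group, controls included, had been through the same enrichment and retroviral infection, and the groups of a day shared their culture media. Day 2 differs from Day 0 in medium as well as in time, so these cannot be told apart. No label ties the libraries to different cultures or litters, and the p-values therefore cover only the spread among these libraries, which may be technical. Values are listed throughout in the order SCR-1, SCR-2, LUC-1 for control and hairpins 1, 3, 4 for a knockdown.

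As background, neutrophils load their granules in waves as they mature. Primary, or azurophil, granule proteins are made at the promyelocyte stage: myeloperoxidase (Mpo) makes hypochlorous acid, and neutrophil elastase (Elane), proteinase 3 (Prtn3) and cathepsin G (Ctsg) are serine proteases. Secondary, or specific, granule proteins follow in myelocytes and metamyelocytes: lactoferrin (Ltf) binds iron, the cathelicidin Camp is an antimicrobial peptide precursor, neutrophilic granule protein (Ngp) belongs to the cystatin fold family, and lipocalin 2 (Lcn2) captures bacterial siderophores. S100a8 and S100a9 encode the subunits of calprotectin, a calcium- and zinc-binding complex of the cytosol of neutrophils and monocytes. The transcription factors PU.1, C/EBP and RUNX1 are known regulators of granule genes, and the fetal liver is a site of both red cell and granulocyte formation.

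In the GRCm38 annotation several members lie together. Prtn3 (ENSMUSG00000057729, chr10:79874476-79883174, plus strand) ends 3072 bases before Elane (ENSMUSG00000020125, chr10:79886247-79888215, plus strand), with no other quantified coding gene between them. S100a8 (ENSMUSG00000056054, chr3:90668978-90670035, plus strand) and S100a9 (ENSMUSG00000056071, chr3:90692632-90695721, minus strand) are 22596 bases apart, again with no coding gene between. Camp (ENSMUSG00000038357, chr9:109847379-109849617, minus strand), Ngp (ENSMUSG00000032484, chr9:110419747-110423012, plus strand) and Ltf (ENSMUSG00000032496, chr9:111019271-111042767, plus strand) share chromosome 9, with 570129 bases and 8 coding genes between Camp and Ngp, and 596258 bases and 20 coding genes between Ngp and Ltf. Mpo (ENSMUSG00000009350, chr11:87793581-87804413, plus strand), Ctsg (ENSMUSG00000040314, chr14:56099881-56102574, minus strand) and Lcn2 (ENSMUSG00000026822, chr2:32384633-32388252, minus strand) are the only members on their chromosomes. The 5′ end of the Prtn3 gene model overlaps Plppr3 on the other strand, and the sources used here do not state whether the counting used strand.

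The promoters of the 4 primary granule genes and of Ltf, Camp and Ngp are shown because the 2 subsets moved in opposite directions between the 2 days. The sequences are RefSeq's for GRCm38.p6, 5′ to 3′ on the gene's own strand, and run from 250 bases before the RefSeq start to the first base annotated as exon, a rule that left no base of the remaining secondary granule gene, Lcn2. Capitals mark matches, on either strand, to 4 letter strings: GAGGAA for PU.1, TTGCNNAA for C/EBP, TGTGGT for RUNX and AGATAA for GATA factors. No marked match overlaps another.
Mpo, chr11:87793534-87793580, + strand: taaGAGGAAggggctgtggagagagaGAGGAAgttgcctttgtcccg
Elane, chr10:79886062-79886246, + strand: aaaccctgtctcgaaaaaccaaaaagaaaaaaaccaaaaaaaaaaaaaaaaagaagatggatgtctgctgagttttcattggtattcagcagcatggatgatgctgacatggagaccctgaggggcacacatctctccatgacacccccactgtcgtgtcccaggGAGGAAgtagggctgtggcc
Prtn3, chr10:79879417-79879613, + strand: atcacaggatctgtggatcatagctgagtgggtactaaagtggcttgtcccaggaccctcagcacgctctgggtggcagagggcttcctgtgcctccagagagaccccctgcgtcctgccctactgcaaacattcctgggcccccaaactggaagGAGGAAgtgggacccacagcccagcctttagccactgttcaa
Ctsg, chr14:56102575-56102824, minus strand: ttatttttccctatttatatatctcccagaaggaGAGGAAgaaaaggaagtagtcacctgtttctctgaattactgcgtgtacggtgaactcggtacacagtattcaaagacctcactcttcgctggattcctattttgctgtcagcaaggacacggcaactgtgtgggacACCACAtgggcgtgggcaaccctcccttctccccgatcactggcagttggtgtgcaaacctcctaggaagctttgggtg
Ltf, chr9:111019042-111019270, + strand: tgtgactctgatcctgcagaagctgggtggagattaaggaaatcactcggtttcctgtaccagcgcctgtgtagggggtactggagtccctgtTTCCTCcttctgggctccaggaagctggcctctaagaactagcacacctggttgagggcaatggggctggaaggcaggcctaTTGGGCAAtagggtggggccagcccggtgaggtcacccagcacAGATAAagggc
Camp, chr9:109849618-109849706, minus strand: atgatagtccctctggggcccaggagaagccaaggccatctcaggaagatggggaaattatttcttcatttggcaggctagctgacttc
Ngp, chr9:110419558-110419746, + strand: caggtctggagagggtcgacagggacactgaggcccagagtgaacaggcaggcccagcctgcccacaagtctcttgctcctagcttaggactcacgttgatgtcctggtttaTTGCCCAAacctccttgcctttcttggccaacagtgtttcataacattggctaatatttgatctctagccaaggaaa

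Over the full 250-base windows, all 10 members matched a RefSeq entry, and GAGGAA occurred in 7 of them, including all 4 primary granule genes, against 23.3% of 32851 promoters of the same length. In Elane it lay at -85 to -80 and in Prtn3 at -95 to -90 from the start, in both cases followed by gt. TTGCNNAA occurred in 4 members, Ltf, Ngp, Lcn2 and S100a9, against 9.56% of all promoters, and in none of the 4 primary granule genes. TGTGGT was found in Ctsg and S100a9 (14.0% of all promoters), AGATAA in Ltf and S100a9 (9.99% of all promoters), and Camp held none of the 4 strings. A match is a description of the letters in this window and not a site of binding.

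The libraries held 27033440 to 54096339 estimated reads. The 10 genes took 0.154 to 0.181% of the reads at Day 0 and 0.0477 to 0.0873% at Day 2. Globin genes took 0.3 to 0.483% of reads at Day 0 and 24.7 to 33.3% at Day 2, so the way libraries are scaled bears on every comparison of days. CPM below are read counts relative to library sizes adjusted with TMM factors, which centre the bulk of genes: with them the median of all 17500 tested genes moved by -0.05 on the log2 scale from Day 0 to Day 2 in control. With plain library totals that median moved by -1.68, and with totals that leave out the globin genes by -1.15. Changes printed under those scalings are not corrected for the shift of the median and are to be read against it. The targeted genes were low in the libraries labelled for them: Pcbp1 was at 186, 197 and 206 CPM in Day 0 control and 14.2, 59.4 and 24.3 CPM in PCBP1 knockdown (log2 -2.59, SE 0.37, edgeR adjusted p = 0.00109), and Pcbp2 was at 282, 285 and 299 CPM in Day 0 control and 71.0, 70.3 and 73.5 CPM in PCBP2 knockdown (log2 -2.01, SE 0.1, edgeR adjusted p = 3.65e-11). At Day 2 the same differences were -2.83 (SE 0.38, edgeR adjusted p = 7.35e-05) and -2.49 (SE 0.1, edgeR adjusted p = 1.04e-12).

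The comparison of days asks how granule genes change while the culture is driven toward red cells. The 4 primary granule genes fell by 22.8- to 74.9-fold from Day 0 to Day 2 in control, and the 4 secondary granule genes rose by 5.24- to 33.8-fold; these directions and calls held under all 3 scalings in control and in both knockdowns. S100a8 and S100a9 rose about as much as each other under TMM scaling, by 2.17- and 2.55-fold, but library totals put both below their Day 0 level in control. Under TMM scaling 6 members were called higher and 4 lower in control, in PCBP1 knockdown and in PCBP2 knockdown, where called means an adjusted p under 0.05 by edgeR's quasi-likelihood test. Most genes changed between the days: 82.9% of tested genes were called in control (40.5% higher, 42.4% lower), 82.0% in PCBP1 knockdown (40.3% higher, 41.7% lower) and 83.1% in PCBP2 knockdown (41.0% higher, 42.2% lower). For all 10 members the libraries of the 2 days did not overlap, as for 83.2% of tested genes in control, 83.3% in PCBP1 knockdown and 84.6% in PCBP2 knockdown. A call alone therefore sets a member apart from few other genes. By size of change in control under TMM scaling, the primary granule genes stood 79th (Ctsg) to 262nd (Prtn3) from the lowest of 17500 tested genes. From the highest, Ltf stood 906th, Camp 1846th, Ngp 2620th and Lcn2 3456th. S100a9 at 5384th and S100a8 at 5838th were less far from the middle of all genes. In bulk samples such as these, fewer cells of a type and less RNA per cell cannot be told apart.

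**Figure D1:**
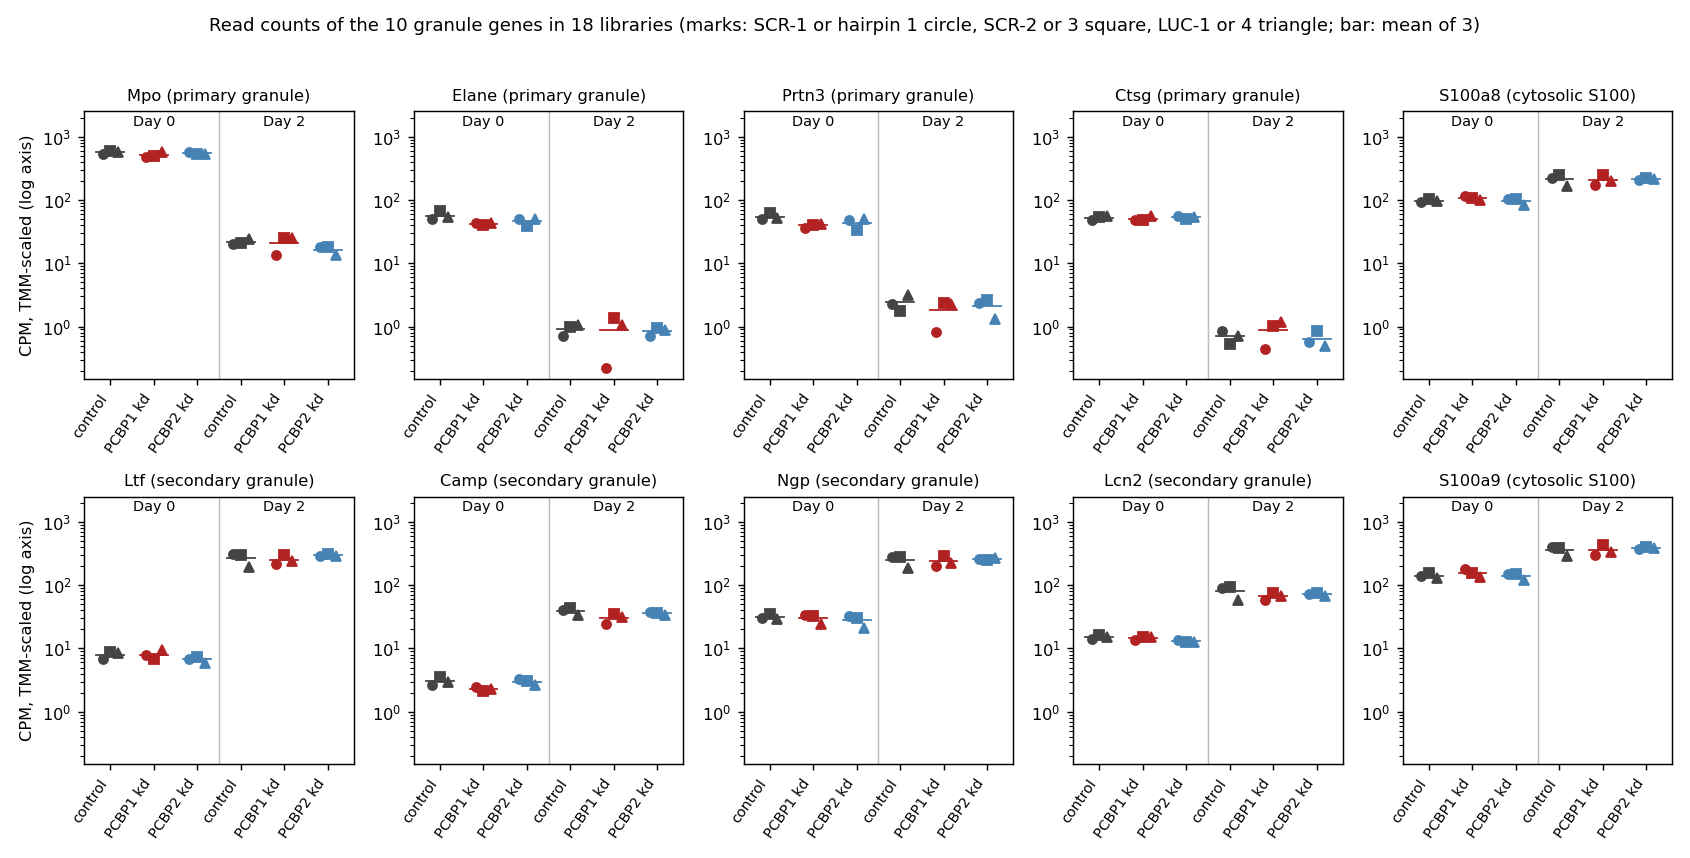
TMM-scaled CPM (log axis) of each granule gene in all 18 libraries, with Day 0 left and Day 2 right of the grey line in each panel; points are libraries and bars are means of 3. The 4 primary granule genes drop and the 4 secondary granule genes climb in every condition, whereas the smaller climb of S100a8 and S100a9 depends on this scaling, and their log2 change is below 0 with library totals in control.

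Among the primary granule genes, Mpo in control was at 536, 586 and 571 CPM on Day 0 and at 20.4, 21.1 and 24.4 CPM on Day 2. The peroxidase thus fell 25.8-fold (log2 -4.69, SE 0.18, edgeR adjusted p = 7.24e-16), with no overlap between days, and still rested on 238 to 476 reads per Day 2 library. Elane was at 49.8, 66.5 and 54.1 CPM at Day 0 and at 0.711, 0.968 and 1.05 CPM at Day 2. Elastase fell 62.6-fold (log2 -5.97, SE 0.24, edgeR adjusted p = 1.83e-15), and its Day 2 values rest on 4 to 24 reads per library. Its neighbour Prtn3 was at 49.9, 62.6 and 51.4 CPM at Day 0 and at 2.28, 1.79 and 3.2 CPM at Day 2. Proteinase 3 kept more of its signal than elastase, with a 22.8-fold fall (log2 -4.51, SE 0.25, edgeR adjusted p = 2.9e-13) and 15 to 55 reads at Day 2. Ctsg was at 48.9, 53.1 and 55.1 CPM at Day 0 and at 0.863, 0.533 and 0.698 CPM at Day 2. Cathepsin G had the lowest value of the 10 genes, a 74.9-fold fall (log2 -6.23, SE 0.19, edgeR adjusted p = 1.57e-17) that placed it 79th from the lowest of all 17500 genes, on 8 to 22 reads per Day 2 library.

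The knockdowns showed the same falls. In PCBP1 knockdown the log2 changes from Day 0 to Day 2 were -4.6 for Mpo, -5.59 for Elane, -4.44 for Prtn3 and -5.84 for Ctsg. In PCBP2 knockdown they were -5.07, -5.78, -4.39 and -6.37 in the same order, all called by edgeR, with standard errors of 0.18 to 0.26 over both knockdowns. The widest spread among replicates was at Day 2 in PCBP1 knockdown, where hairpin 1 was the lowest of the 3 libraries for all 4 genes, with Elane at 0.223 CPM against 1.36 and 1.05 CPM for hairpins 3 and 4. With library totals the control values were -6.33, -7.6, -6.14 and -7.85 for Mpo, Elane, Prtn3 and Ctsg. The values were lower on that scale, on which the median of all genes was lower as well.

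Of the secondary granule genes, Ltf in control was at 6.79, 8.71 and 8.35 CPM on Day 0 and at 308, 304 and 195 CPM on Day 2. Lactoferrin rose the most of the 10 genes, 33.8-fold (log2 5.08, SE 0.19, edgeR adjusted p = 2.64e-16), and stood 906th from the highest of all tested genes. Camp was at 2.66, 3.48 and 3.0 CPM at Day 0 and at 40.2, 42.8 and 34.2 CPM at Day 2. The cathelicidin rose 12.8-fold (log2 3.68, SE 0.15, edgeR adjusted p = 1.52e-15). Ngp was at 30.4, 35.6 and 29.7 CPM at Day 0 and at 277, 280 and 187 CPM at Day 2, a 7.78-fold rise (log2 2.96, SE 0.18, edgeR adjusted p = 1.25e-12). Lcn2 was at 14.3, 16.6 and 15.2 CPM at Day 0 and at 89.7, 93.6 and 58.0 CPM at Day 2, a 5.24-fold rise (log2 2.39, SE 0.14, edgeR adjusted p = 1.11e-12). In all 4 genes the lowest of the 3 control libraries at Day 2 was LUC-1, and the days did not overlap.

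The same 4 genes rose in both knockdowns. In PCBP1 knockdown the log2 changes were 4.99 for Ltf, 3.71 for Camp, 2.98 for Ngp and 2.19 for Lcn2. In PCBP2 knockdown they were 5.45, 3.59, 3.22 and 2.48, all called by edgeR. The order Ltf, Camp, Ngp, Lcn2 was thus found in each condition. Library totals lowered the control values to 3.46, 2.05, 1.34 and 0.77, and totals without globin genes gave 3.98, 2.57, 1.86 and 1.29, each still called. The 3 members on chromosome 9 are spread among other tested genes. Of the other 25 tested genes from Camp to Ltf, 14 were called higher and 7 lower in control under TMM scaling. Their median log2 was 0.94. Over all tested genes 40.5% were called higher and 42.4% lower in that comparison, with a median of -0.05, so calls were common everywhere.

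For the calprotectin subunits, S100a8 in control was at 91.6, 104 and 96.2 CPM on Day 0 and at 225, 245 and 165 CPM on Day 2. Its partner S100a9 was at 138, 156 and 129 CPM at Day 0 and at 400, 392 and 284 CPM at Day 2. Under TMM scaling the log2 changes were 1.12 (SE 0.14, edgeR adjusted p = 1.24e-07) for S100a8 and 1.35 (SE 0.15, edgeR adjusted p = 3.35e-08) for S100a9. These 2 calls depended on the scaling. Library totals gave -0.51 (edgeR adjusted p = 0.00326) for S100a8 and -0.28 (edgeR adjusted p = 0.115) for S100a9 in control, and totals without globin genes gave 0.02 and 0.24, neither called. Relative to the median of all genes, which moved by -1.68 with library totals, both subunits stayed above the median in control under each scaling. PCBP1 knockdown gave 0.93 and 1.19 and PCBP2 knockdown 1.16 and 1.47 for S100a8 and S100a9 under TMM scaling.

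**Figure D2:**
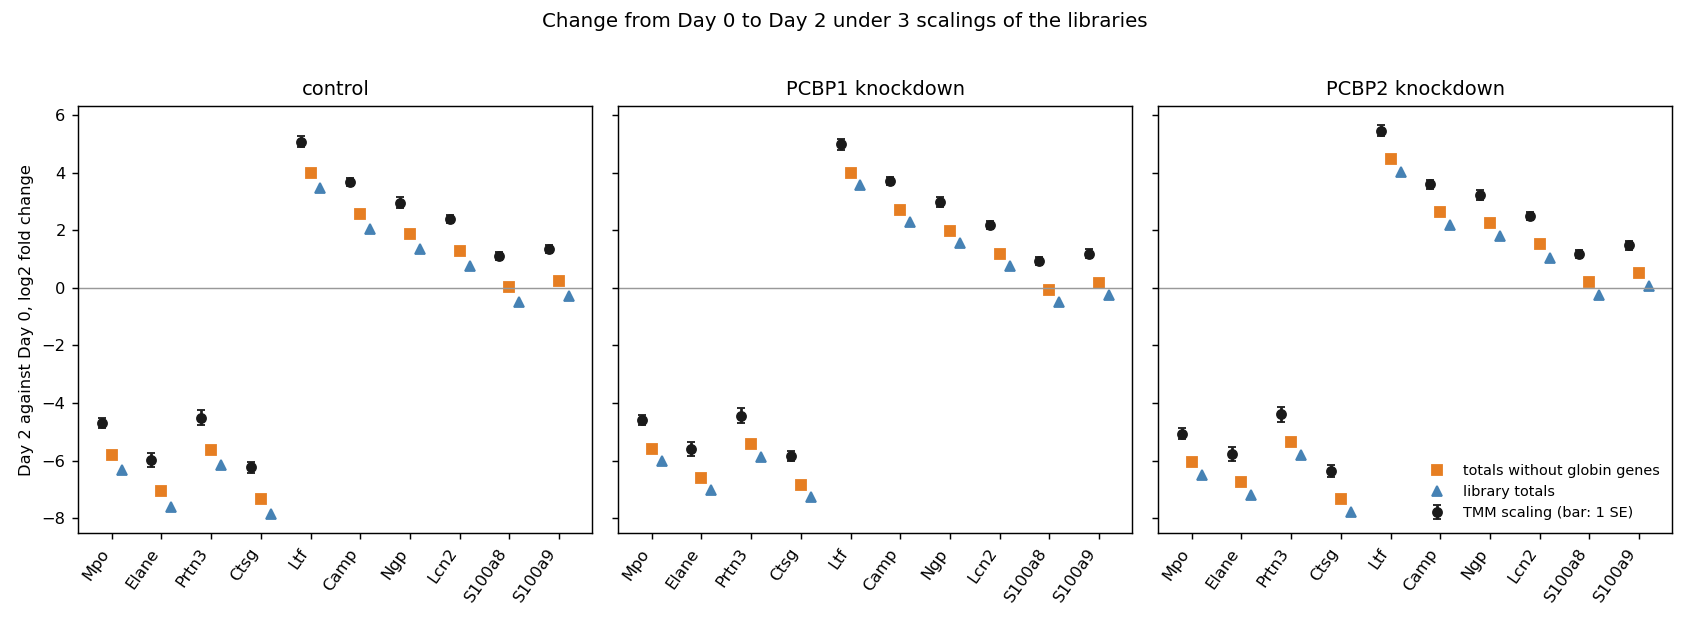
Log2 change from Day 0 to Day 2 of each granule gene in control, PCBP1 knockdown and PCBP2 knockdown, under TMM scaling (circles, bars of 1 SE), totals without globin genes (squares) and library totals (triangles). Primary granule genes lie below 0 and secondary granule genes above 0 with every scaling, while S100a8 and S100a9 change side or come near 0.

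Because ratios between members within a library do not depend on the scaling, the share of the 10 genes' reads taken by each subset was also described. Primary granule genes took 63.2 to 73.9% of the members' reads in the 9 Day 0 libraries and 1.26 to 3.08% in the 9 Day 2 libraries. Secondary granule genes took 4.5 to 6.0% at Day 0 and 49.6 to 52.4% at Day 2. S100a8 and S100a9 together took 21.6 to 30.8% at Day 0 and 45.8 to 48.3% at Day 2. The balance of the granule genes thus turned over in every library: there were 10.5 to 16.4 primary reads for each secondary read at Day 0, and 16.2 to 41.4 secondary reads for each primary read at Day 2. Within Day 2 the lowest ratio was in the control library LUC-1 (16.2, against 29.5 and 29.6 in SCR-1 and SCR-2). The ratios were 34.0, 23.5 and 19.0 in PCBP1 knockdown and 30.6, 30.1 and 41.4 in PCBP2 knockdown, so the groups overlapped except that all 3 PCBP2 knockdown values were above the 3 control values. LUC-1 at Day 2 also had the highest globin share (33.3%) and the highest summed CPM of 10 erythroid genes (625000, against 453000 and 548000). That sum lay mostly in globin genes, so these values are not independent. The share of reads from granule genes was smallest in LUC-1 (0.0477%, against 0.0774 and 0.0751%). The part of these differences in its granule values was not tested.

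**Figure D3:**
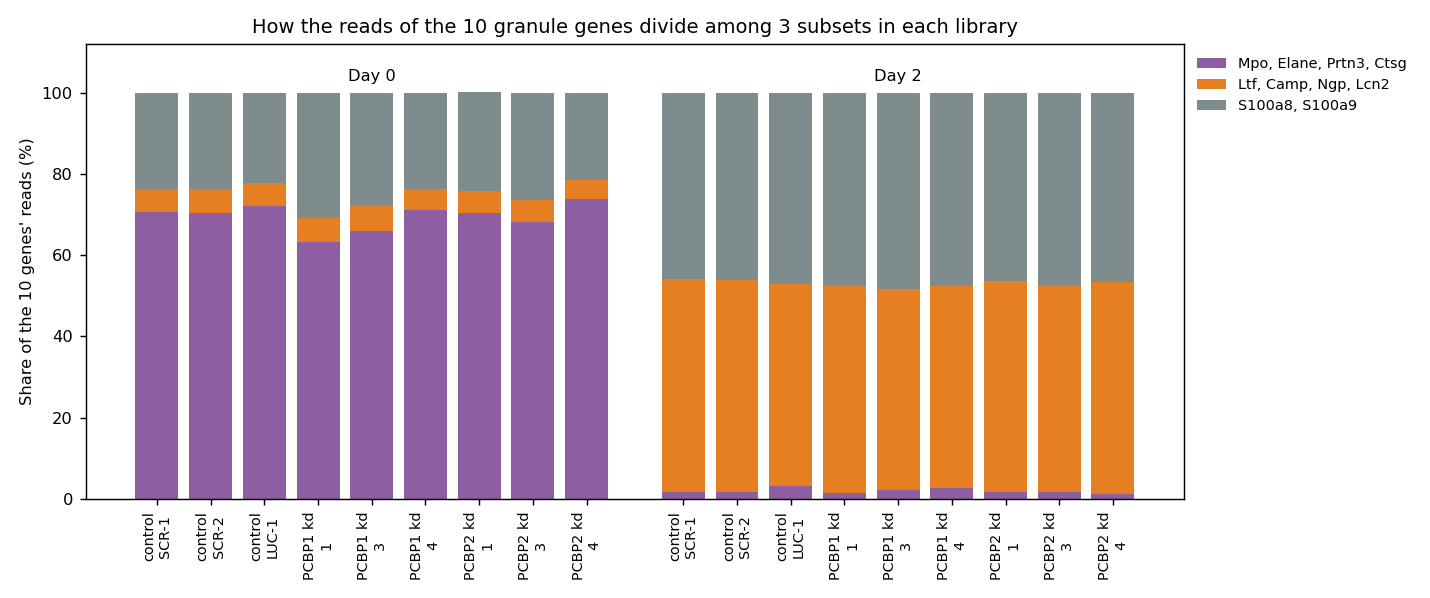
Percentage of the 10 granule genes' reads that fell on primary granule genes, secondary granule genes and the S100 pair, 1 stacked bar per library. Primary granule genes hold 63.2 to 73.9% of each Day 0 bar and at most 3.08% of any Day 2 bar.

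Levels of different genes were compared only in the authors' TPM, a share of transcripts that accounts for length, here summed per gene and given as lowest, median and highest over the 9 libraries of a day. At Day 0 S100a9 (725, 956 and 1280 TPM) and S100a8 (559, 726 and 885 TPM) stood highest. Mpo came next at 534, 577 and 646 TPM and overlapped S100a8. A gap separated these from Prtn3 (median 153 TPM), Elane (136 TPM) and Ctsg (133 TPM), which overlapped each other. Ngp (61.8 TPM) and Lcn2 (41.6 TPM) overlapped below them, and Ltf (10.4 TPM) and Camp (9.98 TPM) were last and could not be separated. At Day 2 S100a9 (368, 670 and 864 TPM) and S100a8 (231, 419 and 534 TPM) still led. Ngp (median 142 TPM), Ltf (98.4 TPM), Lcn2 (60.0 TPM) and Camp (37.4 TPM) formed an unbroken series of overlapping neighbours below them. Mpo followed at 5.07, 6.16 and 11.9 TPM, and Prtn3 (1.77 TPM), Elane (0.67 TPM) and Ctsg (0.396 TPM) stood last. Per length, the calprotectin pair therefore made up 55.3 to 66.3% of the members' TPM at Day 0 and 74.8 to 76.4% at Day 2. TPM, like library totals, is a share of each whole library, and on that scale the medians of S100a8 and S100a9 were lower at Day 2 than at Day 0.

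Members of a subset often varied together between libraries of a day. Over the 9 libraries of a day, which fall in 3 groups and differ in depth, Pearson's r between S100a8 and S100a9 was 0.91 at Day 0 and 0.97 at Day 2. Pairs of primary granule genes had a median r of 0.68 at Day 0 (0.49 to 0.95) and 0.74 at Day 2 (0.61 to 0.78). Pairs of secondary granule genes had a median of 0.31 at Day 0 (0.07 to 0.68) and 0.83 at Day 2 (0.65 to 0.97). Across subsets, the S100 pair and the secondary granule genes had a median of 0.27 at Day 0 and 0.91 at Day 2, while the S100 pair and the primary granule genes had -0.4 and 0.24. These are descriptions of 9 points each.

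The knockdown comparisons ask whether loss of PCBP1 or PCBP2 altered the granule genes on either day. No member was called by edgeR in any of the 4 comparisons with control, in the comparisons of the knockdowns with each other, or in the tests of whether a knockdown's effect changed between days. The fitted log2 differences from control ran from -0.46 to 0.34, far smaller than the day changes. The lowest fitted values were those of Elane, Prtn3 and Camp in PCBP1 knockdown at Day 0 and of Mpo in PCBP2 knockdown at Day 2, and their differences did not pass the adjusted threshold. Comparisons of the same day share the control libraries, so the values of both knockdowns are given side by side.

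At Day 0, 0 of 10 members were called in PCBP1 knockdown, where 0.88% of all tested genes were called by edgeR, and 0 of 10 in PCBP2 knockdown, where 0.0229% were. DESeq2 also called none on that day. The 154 genes behind the PCBP1 share depended on single libraries and on the fit: 17 were called without hairpin 1, 20 without SCR-2, 28 without hairpin 4, 37 without SCR-1 and 88 without hairpin 3, against 1074 from the 9 Day 0 libraries alone. At an unadjusted p under 0.05 there were 3 members in PCBP1 knockdown (10.3% of all genes) and 0 in PCBP2 knockdown (3.26% of all genes). Elane was at 42.6, 40.8 and 43.9 CPM in PCBP1 knockdown, against 49.8, 66.5 and 54.1 CPM in control, so the groups did not overlap (log2 -0.42, SE 0.16, edgeR adjusted p = 0.307). In PCBP2 knockdown it was at 50.2, 39.1 and 50.7 CPM, which overlapped control (log2 -0.28, SE 0.16, edgeR adjusted p = 1.0). Prtn3 was at 36.3, 40.7 and 42.1 CPM in PCBP1 knockdown, against 49.9, 62.6 and 51.4 CPM in control, again without overlap (log2 -0.46, SE 0.19, edgeR adjusted p = 0.355). In PCBP2 knockdown Prtn3 was at 48.4, 33.2 and 50.5 CPM, with hairpin 3 alone well below the others. With the GC trend removed the PCBP1 differences of Elane and Prtn3 were -0.19 and -0.14. Camp was at 2.43, 2.15 and 2.3 CPM in PCBP1 knockdown, against 2.66, 3.48 and 3.0 CPM in control, without overlap (log2 -0.41, SE 0.15, edgeR adjusted p = 0.285). Its log2 difference in PCBP2 knockdown was -0.04. Groups separated downward like this in 14.7% of all genes in PCBP1 knockdown. The remaining 7 members lay between -0.14 and 0.16 in PCBP1 knockdown, among them Mpo at 484, 490 and 564 CPM and Ctsg at 48.6, 47.9 and 55.1 CPM. In PCBP2 knockdown only Lcn2, at 13.6, 12.8 and 12.5 CPM against 14.3, 16.6 and 15.2 CPM, did not overlap control (log2 -0.24, SE 0.14, edgeR adjusted p = 1.0), where 5.94% of all genes separated downward.

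At Day 2, 0 of 10 members were called in PCBP1 knockdown, where 13.1% of all tested genes were called by edgeR, and 0 of 10 in PCBP2 knockdown, where 4.7% were. At an unadjusted p under 0.05 there was 1 member in each (26.9% and 18.7% of all genes). For PCBP1 it was Camp, at 24.1, 35.2 and 31.1 CPM against 40.2, 42.8 and 34.2 CPM in control, groups that overlap (log2 -0.38, SE 0.13, edgeR adjusted p = 0.0666). DESeq2 called Camp in this comparison (log2 -0.37, DESeq2 adjusted p = 0.0382) and no other member in either knockdown at Day 2. Of all genes it tested, DESeq2 called 20.6% in PCBP1 knockdown and 12.6% in PCBP2 knockdown at Day 2. For PCBP2 it was Mpo, at 17.8, 17.9 and 13.3 CPM against 20.4, 21.1 and 24.4 CPM, without overlap (log2 -0.42, SE 0.17, edgeR adjusted p = 0.174), where 10.4% of all genes separated downward. Mpo in PCBP1 knockdown was at 13.3, 25.2 and 25.0 CPM, with hairpin 1 far below hairpins 3 and 4. Lcn2 was at 57.6, 76.2 and 67.4 CPM in PCBP1 knockdown and 72.9, 76.2 and 67.9 CPM in PCBP2 knockdown, inside the control range of 58.0 to 93.6 CPM but for hairpin 1 of PCBP1. The control library LUC-1 widened that range: without it, edgeR called Lcn2 in PCBP1 knockdown (log2 -0.46, adjusted p = 0.0063) and in PCBP2 knockdown (log2 -0.4, adjusted p = 0.0292), and Camp in PCBP1 knockdown (log2 -0.48, adjusted p = 0.0289). Without LUC-1, 8.29% of all tested genes were called in PCBP1 knockdown and 4.81% in PCBP2 knockdown.

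For Ltf, Ngp and the S100 pair the fitted differences from control at Day 2 were small, and none was called by edgeR. Ltf was at 216, 304 and 242 CPM in PCBP1 knockdown and 285, 307 and 291 CPM in PCBP2 knockdown, with log2 differences of -0.08 and 0.13 (SE 0.15 each). Ngp was at 203, 289 and 223 CPM and 260, 253 and 268 CPM, with differences of -0.06 and 0.07 (SE 0.17 each). S100a8 was at 171, 248 and 197 CPM in PCBP1 knockdown and 210, 224 and 211 CPM in PCBP2 knockdown, with differences of -0.04 and 0.02 (SE 0.13 each). The PCBP1 knockdown libraries of these 3 genes had the same order, hairpin 1 lowest and hairpin 3 highest. S100a9 had that order as well, at 297, 437 and 338 CPM in PCBP1 knockdown, and was at 376, 406 and 380 CPM in PCBP2 knockdown. Elane, Prtn3 and Ctsg had standard errors of 0.31 to 0.39 at Day 2, at 4 to 55 reads per library, so a difference of the size seen at Day 0 was not detectable at this depth.

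Some markers of other cell types differed in the same comparisons at Day 2. The summed CPM of 11 lymphoid genes was 18.8, 19.3 and 13.8 in control, 46.8 to 80.5 in PCBP1 knockdown and 24.1 to 28.0 in PCBP2 knockdown, with Cd3e, Rag1, Vpreb1 and Igll1 at 0 in all 3 control libraries. Most of this sum lay in Trdc, a T cell receptor delta gene, and Il7r, the interleukin 7 receptor gene, named after their values were seen. Trdc had a mean of 7.4 CPM in control, 44.0 CPM in PCBP1 knockdown and 13.9 CPM in PCBP2 knockdown, and Il7r of 3.25, 11.9 and 2.97 CPM. Of 5 tested lymphoid genes edgeR called 2 higher in PCBP1 knockdown, Trdc and Il7r, and 1 in PCBP2 knockdown, Trdc, while the B cell gene Cd79a was at 5.41 CPM in control and 5.56 CPM in PCBP1 knockdown. The summed CPM of 10 erythroid genes was 453000 to 625000 in control, 361000 to 383000 in PCBP1 knockdown and 370000 to 447000 in PCBP2 knockdown. Most of it lay in the globin genes Hbb-bs (mean 281000, 213000 and 230000 CPM in that order) and Hba-a1 (218000, 126000 and 138000 CPM). Alas2 had means of 12100, 12100 and 12400 CPM. Under TMM scaling 8 of the 10 erythroid genes were called lower in PCBP1 knockdown and 3 in PCBP2 knockdown. These counts were 3 and 2 with library totals and 5 and 3 with totals without globin genes. The part of these markers in the granule values was not tested.

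**Figure D4:**
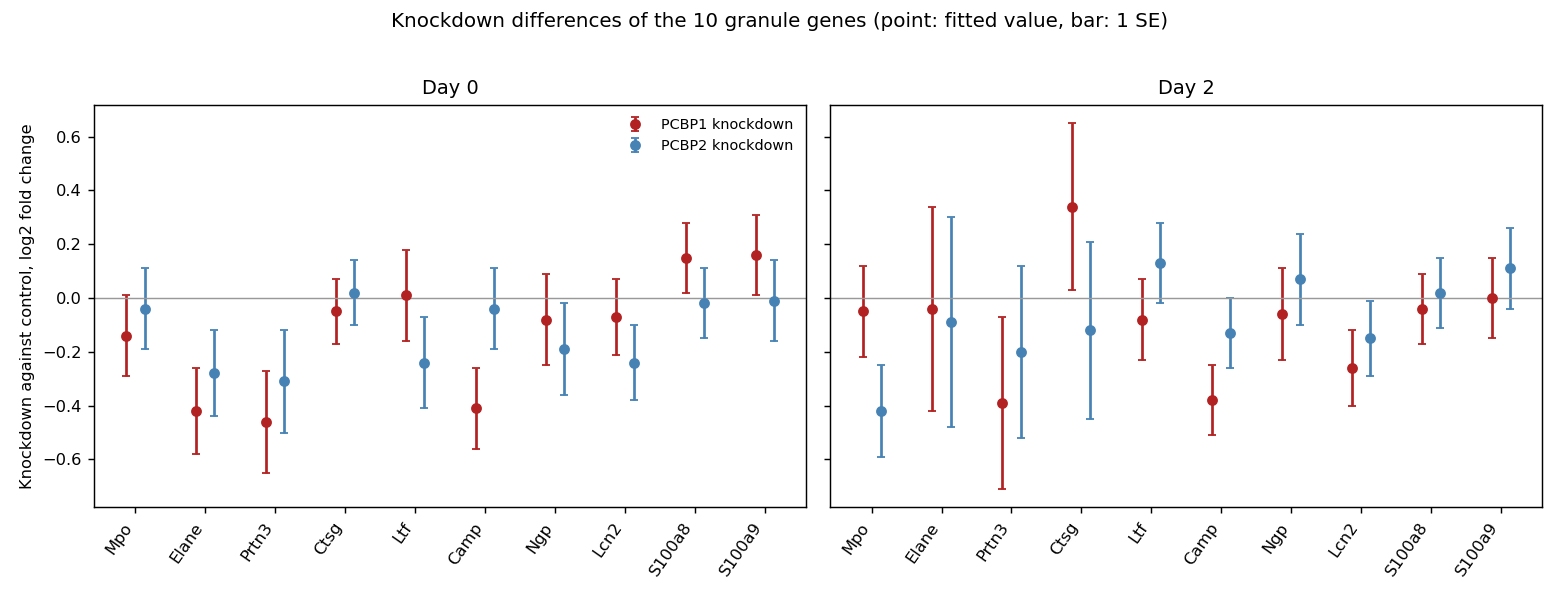
Fitted log2 difference from control of each granule gene in PCBP1 knockdown (red) and PCBP2 knockdown (blue) at Day 0 and Day 2, with bars of 1 SE. No difference passed the adjusted threshold in edgeR, and the bars of Elane, Prtn3 and Ctsg widen at Day 2.

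Set against each other, the knockdowns gave 0 of 10 members called at Day 0 (0.28% of all genes) and 0 of 10 at Day 2 (12.1% of all genes) by edgeR, and DESeq2 called none. At an unadjusted p under 0.05 there was 1 member on each day (6.67% and 26.3% of all genes). Camp was higher in PCBP2 than in PCBP1 knockdown at Day 0, at 3.24, 3.02 and 2.61 CPM against 2.43, 2.15 and 2.3 CPM, without overlap (log2 0.37, SE 0.15, edgeR adjusted p = 0.616), as in 11.2% of all genes. Lcn2 was lower in PCBP2 knockdown that day, again without overlap (log2 -0.18, SE 0.14, edgeR adjusted p = 0.983), as in 6.27% of all genes. Mpo was lower in PCBP2 than in PCBP1 knockdown at Day 2 (log2 -0.38, SE 0.17, edgeR adjusted p = 0.165). That difference passed the threshold without hairpin 1 of PCBP1 (log2 -0.66, edgeR adjusted p = 0.00338), where 5.79% of all genes were called. The change of a knockdown's effect between days was called for 0 of 10 members with PCBP1 (0.389% of all genes) and 0 of 10 with PCBP2 (0.0% of all genes). No member reached an unadjusted p under 0.05 in these tests, against 13.3% and 9.11% of all genes, DESeq2 called none, and the smallest adjusted p by edgeR was 0.652 and 0.637.

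The Prtn3 reads at Day 0 were split by the annotated type of their transcripts, a step chosen after the values were seen. Salmon divided nearly all the reads between 2 coding transcripts and 3 transcripts annotated as retaining an intron, and a further processed transcript, left out here, took at most 0.435% of the reads in any Day 0 library. The coding transcripts were at 30.4, 38.7 and 30.2 CPM in control, 16.7, 21.2 and 19.9 CPM in PCBP1 knockdown and 27.5, 16.4 and 30.8 CPM in PCBP2 knockdown. All 3 PCBP1 knockdown libraries were below all 3 controls, as they were for the whole gene. Groups separated downward like this in 14.7% of all tested genes, and no such share was worked out for transcripts. The retained-intron transcripts were at 19.3, 23.7 and 21.1 CPM in control, 19.5, 19.4 and 22.1 CPM in PCBP1 knockdown and 20.7, 16.7 and 19.5 CPM in PCBP2 knockdown, so these groups overlapped. Retained-intron reads thus made up 39.3% ± 1.59 (SD, n = 3) of the coding and retained-intron reads in control and 51.4% ± 3.25 (SD, n = 3) in PCBP1 knockdown. The difference of 12.1 percentage points had a two-sided exact permutation p of 0.1, the smallest that 3 against 3 libraries can give. In PCBP2 knockdown the share was 44.1% ± 6.03 (SD, n = 3), with an exact permutation p of 0.3. These are 2 of 9 such comparisons, and at 15 to 55 reads per library the Day 2 shares were too thinly covered to add to them. The split is Salmon's estimate among overlapping transcripts, and Prtn3 also overlaps Plppr3 on the other strand.

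**Figure D5:**
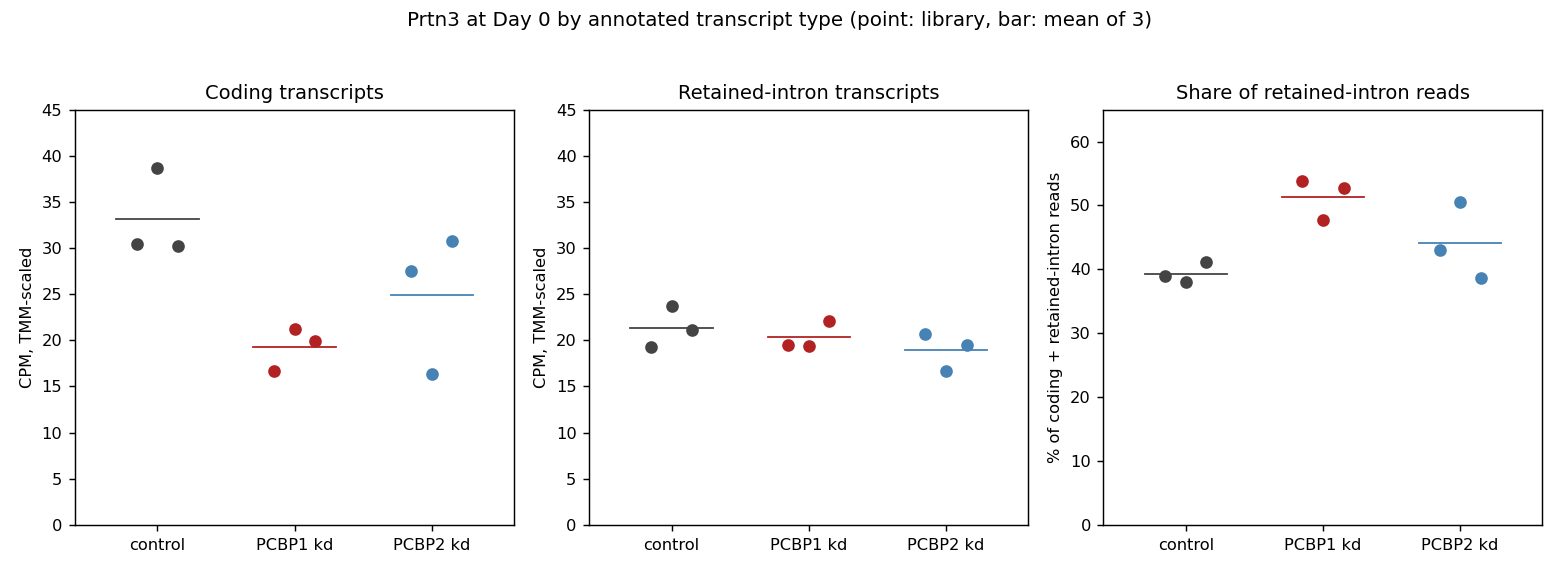
Prtn3 at Day 0 in 9 libraries: TMM-scaled CPM of coding transcripts, TMM-scaled CPM of retained-intron transcripts, and the retained-intron share in percent. The 3 PCBP1 knockdown points lie below control for coding transcripts, among control for retained-intron transcripts and above control for the share.

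The authors' deposited tables of local splicing variations (LSVs), which give the percent spliced in (PSI) of each junction, were read for the 10 genes. In the authors' deposited table no LSV of any member had a posterior of 0.5 or more for a PSI change above 0.2 in any of the 4 comparisons with control, against 0.276% of all LSVs for PCBP1 and 0.142% for PCBP2 at Day 0, and 0.873% and 0.541% at Day 2. The largest Prtn3 change there was -4.53 PSI points in PCBP1 knockdown at Day 0. In the authors' deposited table Mpo at Day 2 in PCBP2 knockdown had the largest posterior of the members, 0.00195. Elane and Ctsg have no LSV in the authors' deposited Day 2 tables.

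Other genes were read from lists that did not include the members. The list names are labels, and not every gene on a list encodes a protein of that granule or class. Examples are Calr, Gstm1 and Dmkn on the primary granule list, Ncf4, Cd63 and the stefin genes on the secondary and gelatinase granule list, and Mgst1 on the receptor list. Of 15 genes on the primary granule list, 13 were tested, and in control 9 were called lower and 3 higher at Day 2 (median log2 -1.33 under TMM scaling, and 1 higher and 11 lower with library totals). Among those lower were the promyelocyte gene Ms4a3 (log2 -4.83, SE 0.25), the serine protease gene Prss57 (-4.56, SE 0.27) and the glutathione transferase gene Gstm1 (-4.34, SE 0.23). Calr, which encodes the chaperone calreticulin, went the other way, at 351, 363 and 432 CPM at Day 0 and 2330, 2480 and 2260 CPM at Day 2 (log2 2.62, SE 0.1). These 4 were called by edgeR and kept their direction under the 3 scalings.

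Of 28 genes on the secondary and gelatinase granule list, all tested, 19 were called higher and 7 lower in control under TMM scaling (median log2 0.94), but 8 higher and 17 lower with library totals and 9 higher and 12 lower with totals without globin genes. The gelatinase Mmp9, a protein of the last granules to form, went from 2, 5 and 6 reads in the Day 0 controls to 299, 333 and 195 reads at Day 2 (log2 7.45, SE 0.34). The NADPH oxidase subunit gene Ncf4 rose by 4.25 on the log2 scale (SE 0.15), and the stefin genes Stfa2 and Stfa3 by 3.91 (SE 0.21) and 3.24 (SE 0.15). These 4 rises were called by edgeR and kept their direction under each scaling. The stefin genes belong to a family of near-identical copies, so their counts are uncertain.

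Of 14 granulocyte transcription factors, 4 were called higher and 7 lower in control (4 higher and 10 lower with library totals). Cebpb was at 1.78, 2.16 and 1.48 CPM at Day 0 and 12.3, 21.9 and 23.3 CPM at Day 2 (log2 3.4, SE 0.24), and Runx1 also rose (log2 2.87, SE 0.14). Myb, a gene of immature progenitors, went from 122, 126 and 126 CPM to 6.04, 6.29 and 3.38 CPM (log2 -4.56, SE 0.17), and Cbfb, the partner of RUNX1, fell as well (log2 -3.61, SE 0.15). These 4 calls by edgeR kept their direction under the 3 scalings. For the factors whose strings were searched in the promoters, named after their values were seen, Spi1 (PU.1) had a log2 change of -1.31 (SE 0.16) and Cebpa 3.04 (SE 0.32), both called by edgeR. Of the GATA factors, Gata1 had control means of 147 CPM at Day 0 and 988 CPM at Day 2, and Gata2 of 30.1 and 13.9 CPM. The part of these factors in the granule values was not tested. Cebpe, the C/EBP factor known for secondary granule genes, had 0.41 (SE 0.23, edgeR adjusted p = 0.104) and was not called under TMM scaling, while library totals gave -1.23 (edgeR adjusted p = 3.44e-05).

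Of 16 genes on the granulocyte receptor list, 7 were called higher and 3 lower in control under TMM scaling (median log2 0.31), against 5 higher and 10 lower with library totals. Ly6g, the antigen that marks mouse neutrophils, had 4, 0 and 1 reads in the Day 0 controls and 77, 96 and 38 reads at Day 2. The cytokine receptor subunit genes Csf2rb2 (log2 4.19, SE 0.22) and Csf2rb (log2 2.57, SE 0.21) and the formyl peptide receptor gene Fpr2 (log2 2.98, SE 0.25) rose as well by edgeR, and with library totals they were still higher at Day 2, at 2.56, 0.93 and 1.35. Markers of other cell types also differed between the days. The summed CPM of 16 monocyte and macrophage genes went from 143 to 167 at Day 0 to 45.5 to 51.8 at Day 2 in control, with 10 of 14 tested genes called lower, 3 higher (12 lower and 0 higher with library totals) and Cd5l at 0 in all 3 Day 2 controls. Most of the Day 0 sum lay in F13a1, named after its values were seen, with control means of 97.1 CPM at Day 0 and 13.5 CPM at Day 2. The summed CPM of 8 early progenitor genes went from 426 to 438 down to 20.5 to 25.9, with 5 of 7 tested genes called lower. Nearly all of the Day 0 sum lay in Kit, with control means of 381 CPM at Day 0 and 3.61 CPM at Day 2. Meis1 had control means of 3.04 and 2.63 CPM, and both genes were named after their values were seen. The summed CPM of 8 megakaryocyte genes was 357 to 418 at Day 0 and 793 to 957 at Day 2 in control, with 6 called higher and 0 lower under TMM scaling. For 16 mast cell, basophil and eosinophil genes the summed CPM was 118 to 148 at Day 0 and 84.8 to 111 at Day 2, with 3 of 11 tested genes called higher and 5 lower under TMM scaling (1 higher and 9 lower with library totals). Most of this sum lay in Hdc at Day 0 (control mean 88.8 CPM) and in Prg2 at Day 2 (control mean 68.7 CPM). These members went both ways: Hdc, the histidine decarboxylase gene, had a log2 change of -2.87 (SE 0.16) and Prg2, an eosinophil granule gene, of 2.24 (SE 0.27) under TMM scaling, both called by edgeR and named after their values were seen. The part of these cell types in the granule values was not tested.

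At Day 0 edgeR called 0 of the 71 tested genes of these 4 lists in either knockdown, with 7 at an unadjusted p under 0.05 in PCBP1 knockdown (10.3% of all genes) and 2 in PCBP2 knockdown (3.26% of all genes). DESeq2 called 1 of them in PCBP1 knockdown, the NADPH oxidase subunit gene Cyba, and 0 in PCBP2 knockdown. At Day 2 edgeR called 7 of the 71 in PCBP1 knockdown and 5 in PCBP2 knockdown, where 13.1% and 4.7% of all tested genes were called. DESeq2 called 9 in PCBP1 knockdown, adding Ctsc and Csf2ra, and the same 5 in PCBP2 knockdown, against 20.6% and 12.6% of all genes it tested. Ctsc had a mean of 34.0 CPM in control and 50.2 CPM in PCBP1 knockdown. Cebpb was at 4.01, 7.43 and 5.79 CPM against 12.3, 21.9 and 23.3 CPM in control, without overlap (log2 -1.74, SE 0.24, edgeR adjusted p = 7.86e-05), and in PCBP2 knockdown at 7.56, 8.36 and 8.68 CPM, also without overlap (log2 -1.22, SE 0.23, edgeR adjusted p = 0.00492). Both Cebpb calls held under the 3 scalings. Calr (log2 -0.5, SE 0.09, edgeR adjusted p = 0.00139) and Ncf4 (log2 -0.63, SE 0.13, edgeR adjusted p = 0.00352) were lower and Klf5, a Krüppel-like factor gene, higher (log2 0.47, SE 0.13, edgeR adjusted p = 0.0169) in PCBP1 knockdown, each called under the 3 scalings. Fcnb, Cyba and Cebpd were also called lower there, with edgeR adjusted p of 0.0237, 0.0277 and 0.0497, and lost the call with library totals. In PCBP2 knockdown the neutrophil collagenase gene Mmp8 (log2 0.54, SE 0.15, edgeR adjusted p = 0.0403) and the protease inhibitor gene Slpi (log2 0.68, SE 0.18, edgeR adjusted p = 0.0388) were higher under each scaling. Cyba and Runx1 were lower (edgeR adjusted p = 0.0303 and 0.0424) and lost the call with both other scalings. Scaling also moved the balance of all calls at Day 2: 964 genes were higher and 1332 lower in PCBP1 knockdown under TMM scaling, against 3454 and 626 with library totals, and 166 higher and 656 lower in PCBP2 knockdown, against 985 and 227.

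The genes whose levels followed each subset most closely were named by Pearson's r over the 18 libraries, after taking out each day's mean, among 12525 candidate genes; this is a description of libraries that share groups and depth. For the primary granule genes they were Tmem8 (r = 0.899), Tubb6 (0.853), Irf8 (0.838), Csf1r (0.834), Cyth4 (0.823) and Rhog (0.823). For the secondary granule genes they were Sept5 (r = 0.939), Itgb2 (0.873), Rasgrp2 (0.84), Alox5ap (0.838), Ncf1 (0.833) and Cd81 (0.819). For the S100 pair they were Gm5483 (r = 0.936), BC100530 (0.921), Gm15845 (0.842), Atp8b4 (0.825), Gt(ROSA)26Sor (0.824) and Ptprc (0.824). Csf1r encodes the macrophage colony-stimulating factor receptor, Itgb2 and Ncf1 encode a leukocyte integrin subunit and an NADPH oxidase subunit, and Gm5483 and BC100530 are stefin-like genes with close copies. Between days, in control under TMM scaling, some of these genes moved in the direction of their subset and some did not. Tmem8, Tubb6, Irf8, Csf1r and Cyth4 fell like the primary granule genes (log2 -1.16, -2.12, -1.28, -1.42 and -1.23), while Rhog had 0.15. Sept5, Rasgrp2 and Cd81 rose like the secondary granule genes (1.26, 0.33 and 2.17). Alox5ap (-0.45), Itgb2 (-0.37, SE 0.15) and Ncf1 (-1.02, SE 0.16) did not. Gm5483, BC100530, Gm15845 and Gt(ROSA)26Sor rose like the S100 pair (1.25, 1.28, 1.51 and 2.08). Atp8b4 (-2.35, SE 0.17) and Ptprc (-0.14) did not.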

How the data were processed

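RNA was sequenced from 18 libraries in 6 groups of 3, and the members and lists were chosen with earlier results of these data known. Per the submitters' processing notes, FastQC 0.11.9, Trim Galore 1.46.0, STAR 2.5.3a, SAMtools 1.9, Salmon 0.11.3 and GRCm38 were used. For each library the authors deposited a Salmon table of 111706 transcripts, with estimated counts and TPM. Per the file headers, the authors' deposited splicing tables give PSI changes and posteriors, which are copied, not tested.

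Transcripts were assigned to genes with GENCODE M21 (110403 matched; the other 1303 held 0.275 to 0.579% of reads and were left out). Estimated counts were summed per gene, rounded, filtered with filterByExpr and tested with edgeR 4.0.16 (limma 3.58.1, R 4.3.3): TMM factors, 6 group means, 12 residual degrees of freedom, quasi-likelihood F tests, Benjamini-Hochberg adjustment over 17500 genes, threshold 0.05. All adjusted p-values are from edgeR unless DESeq2 1.42.0 is named. The test was checked on simulated data. Alternatives were library totals, totals without globin genes (added after seeing the data), no filter, GC trend removed, DESeq2, a replicate block, each day alone and each library left out.

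Named genes are the 10 members, Pcbp1 and Pcbp2, up to 4 genes per list by smallest p, list genes called in a knockdown comparison and the 6 closest genes per subset. Promoter windows came from RefSeq. Where labels give no separate cultures, p-values cover the spread between libraries. The depth was 27033440 to 54096339 estimated reads per library, which limits the precision of genes with few reads.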

Additional observations from a re-analysis of the deposited data

How the results depend on the processing

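The 10 calls between days held in each condition with DESeq2, without the low-count filter, with the GC trend removed and with each library left out in turn. The 8 primary and secondary granule genes also kept direction and call under library totals and totals without globin genes. With library totals S100a8 turned to -0.51 in control, -0.5 in PCBP1 knockdown and -0.26 in PCBP2 knockdown, and S100a9 to -0.28 in control and -0.25 in PCBP1 knockdown. In PCBP2 knockdown S100a9 was at 0.05 with library totals and was not called. With totals without globin genes, chosen after seeing the data, S100a8 was at 0.02 in control, -0.08 in PCBP1 knockdown and 0.19 in PCBP2 knockdown, none called. S100a9 was at 0.24, 0.17 and 0.5 in that order, and was called only in PCBP2 knockdown (edgeR adjusted p = 0.00505).

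In the knockdown comparisons the count of called members moved from 0 to 1 in these settings: PCBP1 at Day 0 without the filter (1, Prtn3, edgeR adjusted p = 0.0289) and from the 9 Day 0 libraries alone (1, Elane, edgeR adjusted p = 0.043); PCBP1 at Day 2 with DESeq2 (1, Camp); PCBP2 against control and against PCBP1 at Day 2 without the filter (1 each, Mpo, edgeR adjusted p = 0.0276 and 0.0469). Leaving out single libraries gave 0 to 2 for PCBP1 at Day 2 (2 without LUC-1, and 1, Camp, without hairpin 3), 0 to 1 for PCBP2 at Day 2 (1 without LUC-1) and 0 to 1 for PCBP2 against PCBP1 at Day 2 (1 without hairpin 1 of PCBP1). The causes were not tested. With the GC trend removed, Elane and Prtn3 in PCBP1 knockdown at Day 0 came to -0.19 and -0.14. Over all settings they ran from -0.5 to -0.19 and from -0.51 to -0.14. At Day 2 the difference of Camp in PCBP1 knockdown ran from -0.48 to -0.15 and that of Mpo in PCBP2 knockdown from -0.54 to -0.22. The share of all genes called from the 9 libraries of a day alone was 6.81% for PCBP1 and 0.038% for PCBP2 at Day 0, and 5.94% and 0.198% at Day 2. At Day 2 it was 8.26% without hairpin 1, 14.8% without hairpin 3 and 8.29% without LUC-1 for PCBP1. For PCBP2 at Day 2 it was 2.43% without hairpin 4 and 4.81% without LUC-1. Between the knockdowns it was 0.05 to 0.178% with 1 library left out at Day 0 and 5.79 to 16.9% at Day 2. Without the filter it was 1.55% for PCBP1 at Day 0, 3.79% for PCBP2 at Day 2 and 7.37% between the knockdowns at Day 2. With DESeq2 it was 20.6% for PCBP1 at Day 2. No setting called a member in PCBP2 knockdown at Day 0, in PCBP2 against PCBP1 knockdown at Day 0, or in either test of a change in effect between days.

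Over all tested genes, deviations of libraries with a shared hairpin were nearly uncorrelated: r was -0.0092 to 0.0418 across days and -0.0451 to 0.0704 between targets. Such an r cannot show that single genes are unpaired. Pcbp1 in PCBP1 knockdown kept its hairpin order, at 14.2, 59.4 and 24.3 CPM at Day 0 and 15.6, 57.2 and 40.4 CPM at Day 2. With the replicate block 10 of 10 members were called between days, 0 in the interactions and 0 between the knockdowns on each day, and the block changed no call. Depth limits Elane, Ctsg and Prtn3 at Day 2, at 4 to 55 reads per library.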
